A study of Mus musculus with 35 samples.

Results

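The 53 genes described here drive DNA replication and cell division and were chosen as a list of known cell cycle genes. They fall into 29 genes used at the G1/S border and in S phase (origin licensing, helicase activation, synthesis at the fork, E2F factors with the E cyclins, and the checkpoint and chromatin genes Chek1 and Uhrf1) and 24 genes used in G2 and mitosis. Of the 53, 52 were measured as genes of their own among the 19938 genes of the array, all 29 G1/S genes and 23 of the 24 G2/M genes. Ccnb1, a cyclin of mitotic entry, was not analysed here, because no cluster carried its symbol alone.

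The cells were type 1 conventional dendritic cells (cDC1), a dendritic cell subset specialised in showing engulfed antigen to CD8 T cells, sorted by flow cytometry from digested mouse spleens and profiled on 35 Affymetrix arrays, 1 per library. Set 1 compared 5 heterozygous libraries (MyclGFP/+, HET) with 4 homozygous ones (MyclGFP/GFP, Mycl KO) at steady state. Set 2 compared 5 wild-type libraries (Mycl+/+, WT) with 5 Mycl KO libraries at steady state. Set 3 compared 5 WT with 5 Mycl KO libraries from mice given poly IC (100 µg, into the peritoneum), an artificial double-stranded RNA that triggers interferon, 5 h earlier. The Mxd1 set compared 3 Mxd1+/+ libraries (WT) with 3 libraries labelled Mxd1-/- (Mxd1 KO), all taken 18 h after the same dose of poly IC. The control of set 1 thus carried 1 GFP allele, whereas the controls of the other sets carried none. The GFP allele is in the germ line, so other cells of these mice carry it too. The labels call the libraries of a group biological replicates, do not say whether mice were pooled, and give no age or strain, so the p-values below measure the spread between these libraries.

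A cell entering S phase first loads the MCM helicase onto replication origins with the help of Cdc6 and Cdt1. Cyclin E and CDK activity then fire the origins through Cdc45, Mcm10 and the GINS complex, and clamp, clamp loader, polymerases, primase, ligase and flap nuclease copy the strands. E2F transcription factors switch most of these genes on at the G1/S border, whereas the genes of G2 and mitosis are switched on later by the MuvB complex with B-MYB and FOXM1. MYC family proteins such as MYCL bind DNA with MAX and favour growth and division, and MXD1 is a repressor that competes for MAX. Most cDC1 of the spleen arise from dividing precursors, and a part of them still divide in the tissue.

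The promoters of the G1/S and G2/M members with the most calls below, ranked within a class by size where calls were equal, are shown first, to let the letters of G1/S and G2/M promoters be compared. The windows are RefSeq sequences of GRCm38.p6, 250 bases before to 50 bases after the annotated start, written along the strand of the gene. Capitals mark the letters of any of 4 motifs on either strand, namely the E2F motif (TTCCCGC or TTGGCGC), the cell cycle homology region, CHR (TTTGAA), the CCAAT box (CCAAT) and the E-box of MYC, MAX and MXD proteins (CACGTG). An E2F match and a CCAAT match can share letters, as in the E2f8 window. RefSeq windows were matched for 24 of the 29 G1/S genes and 18 of the 24 G2/M genes. Mcm4 and Ccna2 would also have been shown by the rule used.
Cdc6, chr11:98907901-98908200, + strand: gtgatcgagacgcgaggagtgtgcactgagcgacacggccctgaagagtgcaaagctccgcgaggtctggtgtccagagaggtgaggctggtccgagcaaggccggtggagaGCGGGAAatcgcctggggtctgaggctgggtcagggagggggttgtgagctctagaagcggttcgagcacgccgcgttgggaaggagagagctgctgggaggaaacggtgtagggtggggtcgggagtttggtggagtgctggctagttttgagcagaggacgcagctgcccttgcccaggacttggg
E2f8, chr7:48881547-48881846, - strand: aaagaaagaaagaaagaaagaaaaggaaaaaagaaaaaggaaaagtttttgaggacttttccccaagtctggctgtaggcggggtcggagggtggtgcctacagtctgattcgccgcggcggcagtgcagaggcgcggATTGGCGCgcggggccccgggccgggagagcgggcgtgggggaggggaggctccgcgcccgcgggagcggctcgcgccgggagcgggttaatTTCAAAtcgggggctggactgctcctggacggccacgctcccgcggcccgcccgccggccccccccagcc
Cdt1, chr8:122567765-122568064, + strand: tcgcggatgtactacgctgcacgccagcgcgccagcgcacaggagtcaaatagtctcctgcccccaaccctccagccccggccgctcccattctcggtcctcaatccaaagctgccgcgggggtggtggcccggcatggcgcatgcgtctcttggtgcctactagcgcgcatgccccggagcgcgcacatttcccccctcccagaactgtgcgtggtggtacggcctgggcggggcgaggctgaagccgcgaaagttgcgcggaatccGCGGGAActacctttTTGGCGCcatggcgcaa
Top2a, chr11:99024140-99024439, - strand: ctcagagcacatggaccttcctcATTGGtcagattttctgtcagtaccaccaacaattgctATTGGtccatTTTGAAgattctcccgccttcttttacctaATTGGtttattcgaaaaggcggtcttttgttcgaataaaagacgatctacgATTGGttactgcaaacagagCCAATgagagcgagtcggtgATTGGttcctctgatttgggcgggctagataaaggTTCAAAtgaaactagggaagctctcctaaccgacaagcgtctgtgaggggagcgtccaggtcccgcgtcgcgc
Mki67, chr7:135716330-135716629, - strand: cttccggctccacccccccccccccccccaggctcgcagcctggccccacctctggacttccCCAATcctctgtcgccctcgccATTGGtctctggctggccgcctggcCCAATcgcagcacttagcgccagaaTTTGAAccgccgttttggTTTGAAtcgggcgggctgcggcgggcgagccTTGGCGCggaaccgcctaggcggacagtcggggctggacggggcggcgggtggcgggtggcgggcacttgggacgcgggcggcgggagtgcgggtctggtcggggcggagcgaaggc
Bub1b, chr2:118597961-118598260, + strand: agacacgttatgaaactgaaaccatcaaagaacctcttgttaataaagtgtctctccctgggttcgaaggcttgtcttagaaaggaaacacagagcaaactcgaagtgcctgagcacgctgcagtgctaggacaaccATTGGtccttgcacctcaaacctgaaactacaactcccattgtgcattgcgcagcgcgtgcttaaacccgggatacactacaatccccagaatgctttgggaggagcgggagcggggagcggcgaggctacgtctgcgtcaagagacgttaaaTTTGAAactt
The 3 G1/S windows each hold an E2F match, at position -138 from the start in Cdc6, at -111 in E2f8 and at 19 and 34 in Cdt1. The 3 G2/M windows each hold a CHR match, at -179 and -23 in Top2a, at -116 and -98 in Mki67 and at 41 in Bub1b. Top2a also holds 6 CCAAT boxes, Mki67 holds 3 and Bub1b holds 1. The split between the classes is not clean. The G1/S gene E2f8 also holds a CHR match at -20 and a CCAAT box at -112, and the G2/M gene Mki67 an E2F match at -67. None of these 6 windows holds the letters CACGTG.

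Across the classes, an E2F match lay in the windows of 66.7% of the 24 G1/S genes, 16.7% of the 18 G2/M genes and 7.79% of 27025 genes with a window. A CHR match lay in 20.8% of the G1/S genes, 72.2% of the G2/M genes and 20.2% of all genes. CCAAT boxes lay in 62.5% of the G1/S genes, 83.3% of the G2/M genes and 41.1% of all genes. The CACGTG letters lay in 8.33% of the G1/S genes, 5.56% of the G2/M genes and 8.09% of all genes. A gene with several windows was counted once if any of them held the motif. These matches describe the letters only.

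All levels are log2 values made by RMA, a method that gives the arrays processed together the same distribution of values, so each level is relative to the other transcripts of its array. The 4 sets were treated as normalized separately, and differences were taken only within a set. The Mycl level checked the labels: it was 9.65 to 9.93 in HET and 6.78 to 7.11 in KO libraries of set 1, and 9.55 to 9.79 in WT and 5.51 to 5.80 in KO libraries of set 2. In set 3 it was 9.03 to 9.81 in WT libraries and 5.52 to 6.14 in 4 KO libraries, but 8.87 in the library labelled KO 3. The mean of 14 interferon genes in set 3 was 7.17 in WT library 1 and 8.33 in WT library 4, against 10.53 to 11.05 in the other 8 libraries. Mxd1 itself read 10.63 to 11.03 in the WT libraries and 10.41 to 10.64 in the libraries labelled Mxd1 KO, so this label was not borne out by the level of its gene. No source used here says where the deletion lies relative to the probes of Mxd1. All 13 cDC1 marker genes had group means above the filter level, the 30th percentile of named clusters, in all 8 groups. Of 7 B cell genes on the array, 4 were above it and 3, Cd79a, Ebf1 and Cr2, were below it in each of the 8 groups. All 7 plasmacytoid dendritic cell genes on the array were above it in all 8 groups as well. Of 8 monocyte and macrophage genes, 7 were above it in sets 1 to 3 and 6 in the Mxd1 set. A mean above this level is thus not particular to cDC1 markers.

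**Figure D1:**
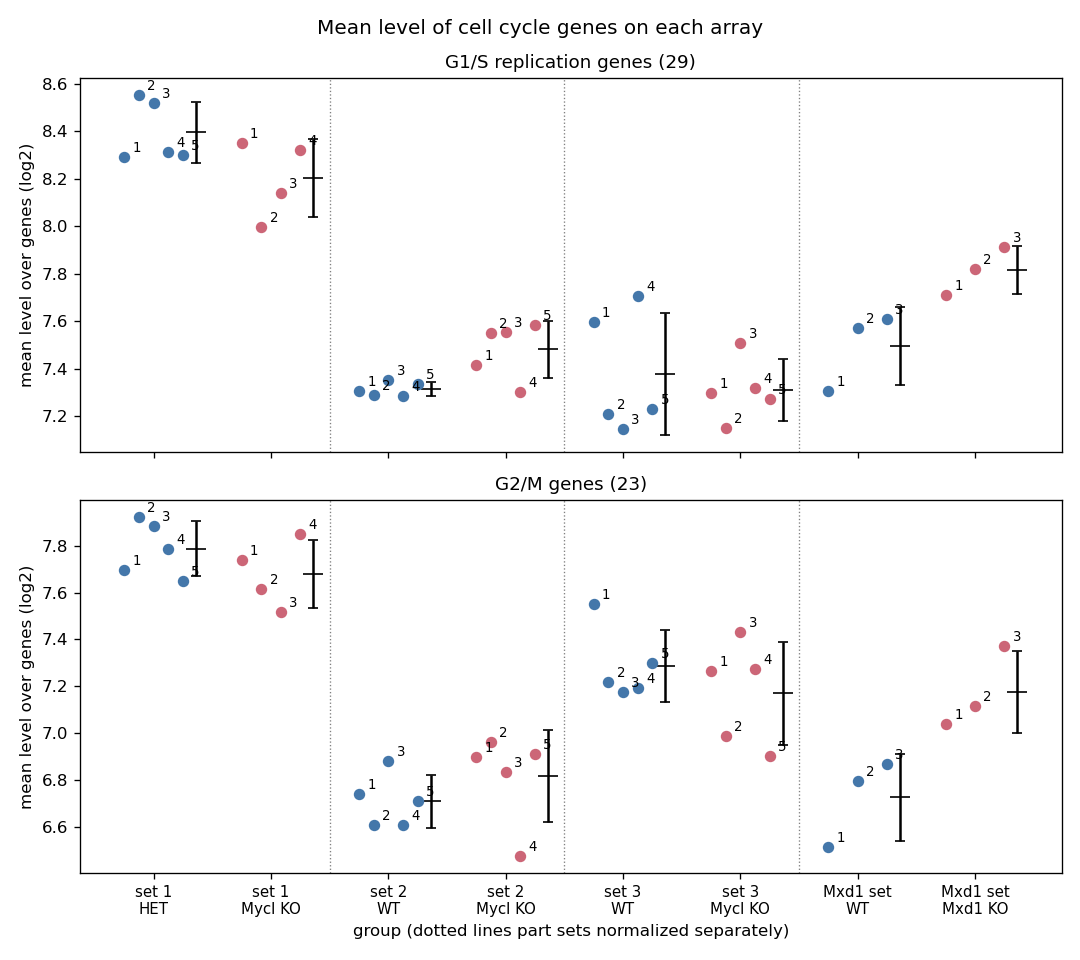
Mean log2 level over the 29 G1/S genes (upper panel) and the 23 measured G2/M genes (lower panel) on each array. Each point is 1 library with its number, black bars give the group mean ± SD, and dotted lines part the sets, whose levels are not comparable. The 3 libraries labelled Mxd1 KO lie above the 3 WT libraries of their set in both panels, while the groups of the other sets overlap.

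In set 1, most replication and mitosis genes read lower in resting Mycl KO cDC1 than in HET cDC1, but no single gene passed the test. The difference was below 0 for 49 of the 52 genes, against 48.7% of all 14023 genes tested. The median difference was -0.18 over the 29 G1/S genes and -0.12 over the 23 G2/M genes, against 0.0029 over all genes tested. With limma and Benjamini-Hochberg adjustment over all genes, 0 of the 50 members tested were called, against 0.0214% of all genes in either direction. At an unadjusted p under 0.05, 8 G1/S and 2 G2/M genes were lower, against 8.45% of all genes. Cdc25c and Ttk did not reach the filter level in enough libraries to be tested. In bulk samples such as these, fewer dividing cells and less RNA of a gene per dividing cell cannot be told apart.

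The 8 origin licensing genes were all below 0 in set 1, with differences from -0.39 to -0.16 and a median of -0.26. Cdc6, the factor that loads the helicase onto origins, read 7.41, 7.65, 7.66, 7.49 and 7.81 in HET libraries 1 to 5 and 7.40, 7.30, 7.04 and 7.11 in KO libraries 1 to 4. Its 4 KO values lay below all 5 HET values, and the difference was -0.39 ± 0.09 (adjusted p = 0.16), the lowest adjusted p of the 50. Cdc6 and E2f8 were the 2 members whose groups did not overlap with KO lower, against 2.72% of all genes.

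Cdt1, the partner of Cdc6 in loading, read 7.78, 7.91, 8.04, 7.78 and 7.90 in the HET and 7.78, 7.62, 7.65 and 7.76 in the KO libraries, a difference of -0.18 ± 0.06 (adjusted p = 0.263). HET libraries 1 and 4 and KO library 1 held the same value, 7.78448. Exact ties in set 1 also occurred in other members, such as Nuf2 at 6.42744 in HET library 3 and KO libraries 1, 2 and 4. Over all clusters, the pair of arrays with the most equal values shared 2770, against a mean of 0.207 for pairs from different sets. The source of the ties, and their part in the SE and p-values of set 1, was not tested. The helicase subunit gene Mcm2 read 9.67, 9.85, 9.96, 9.62 and 9.44 in the HET and 9.60, 9.17, 9.35 and 9.60 in the KO libraries, a difference of -0.28 ± 0.11 (adjusted p = 0.323). For Mcm4, another subunit, the HET values were 8.96, 9.23, 9.12, 8.96 and 8.82 and the KO values 8.99, 8.57, 8.77 and 8.99, a difference of -0.19 ± 0.10. In both genes HET libraries 2 and 3 were the highest and KO library 2 was the lowest.

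Mcm5 read 9.83, 9.86, 10.01, 9.82 and 9.55 in the HET and 9.73, 9.33, 9.47 and 9.60 in the KO libraries, a difference of -0.28 ± 0.10 (adjusted p = 0.254). Mcm6 read 9.40, 9.64, 9.67, 9.31 and 9.37 against 9.47, 8.76, 9.22 and 9.38, a difference of -0.27 ± 0.13. Mcm7 read 8.83, 9.27, 9.09, 8.88 and 8.65 against 8.86, 8.27, 8.75 and 8.92, a difference of -0.24 ± 0.15. In these helicase subunit genes KO library 2 was again the lowest, and the groups overlapped, with KO libraries 1 and 4 above the lowest HET library. The sixth subunit gene, Mcm3, had a difference of -0.16 ± 0.11.

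The 4 helicase activation genes ranged from -0.31 (Gins1) to -0.10 (Mcm10) in set 1. Cdc45, the cofactor that turns the loaded MCM ring into a moving helicase, read 8.66, 8.95, 8.80, 8.63 and 8.52 in the HET and 8.74, 8.33, 8.49 and 8.69 in the KO libraries, a difference of -0.16 ± 0.10. HET libraries 1, 4 and 5 lay within the KO range.

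Of the 9 fork genes, 7 were below 0 and 2 were not, Rfc5 at 0.02 and the sliding clamp gene Pcna at 0.0045. Prim1, the primase subunit that starts each DNA strand, read 8.23, 8.75, 8.67, 8.25 and 7.82 in the HET and 8.32, 7.63, 7.99 and 8.18 in the KO libraries, a difference of -0.31 ± 0.19 (adjusted p = 0.47). The HET values of Prim1 spread from 7.82 to 8.75, and HET library 5 was lower than 3 of the 4 KO libraries. Pole, the leading strand polymerase, read 8.26, 8.68, 8.67, 8.45 and 8.41 against 8.41, 8.05, 8.14 and 8.40, a difference of -0.24 ± 0.10 (adjusted p = 0.329).

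All 6 E2F factor and E cyclin genes were below 0, from -0.36 to -0.06. Ccne2, a cyclin that drives entry into S phase, read 6.33, 6.93, 6.62, 6.46 and 6.84 in the HET and 6.36, 6.22, 6.13 and 6.41 in the KO libraries, a difference of -0.36 ± 0.12 (adjusted p = 0.242). E2f8, an atypical E2F that represses E2F targets, read 7.81, 7.93, 8.07, 7.81 and 7.90 against 7.81, 7.59, 7.46 and 7.80, a difference of -0.24 ± 0.08 (adjusted p = 0.256). Its groups met at 7.81 without overlapping. E2f1, an activating E2F, read 7.96, 8.15, 8.23, 8.02 and 8.02 against 8.08, 7.73, 7.96 and 8.06, a difference of -0.12 ± 0.08. The checkpoint kinase gene Chek1 was at -0.25 and Uhrf1, which helps copy DNA methylation, at -0.17.

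Among the G2/M genes of set 1, Plk1 was the single gene above 0, at 0.04. Ccna2, the cyclin that bridges S phase and mitosis, read 8.58, 9.02, 8.88, 8.84 and 9.03 in the HET and 8.65, 8.85, 8.64 and 8.91 in the KO libraries, a difference of -0.11 ± 0.09. Bub1b, a spindle checkpoint protein, read 7.62, 7.84, 7.75, 7.83 and 7.38 against 7.60, 7.34, 7.32 and 7.74, a difference of -0.18 ± 0.11. Both genes overlapped widely between the groups.

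The chromosome passenger kinase gene Aurkb read 8.83, 9.10, 9.07, 8.76 and 8.72 in the HET and 8.72, 8.70, 8.55 and 8.85 in the KO libraries, a difference of -0.19 ± 0.09 (adjusted p = 0.372). Top2a, the topoisomerase that untangles sister chromatids, read 7.93, 8.16, 8.09, 7.94 and 8.03 against 7.92, 7.75, 7.63 and 8.01, a difference of -0.20 ± 0.08 (adjusted p = 0.297). Mki67, the proliferation marker that coats mitotic chromosomes, read 9.91, 9.99, 10.00, 9.94 and 9.96 against 9.89, 9.92, 9.53 and 9.92, a difference of -0.15 ± 0.08. For Mki67, KO library 3 alone stood clearly below the rest.

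Kif11, the motor that pushes spindle poles apart, read 8.0, 8.33, 8.18, 7.99 and 7.84 in the HET and 8.06, 7.65, 7.63 and 8.12 in the KO libraries, a difference of -0.20 ± 0.12 (adjusted p = 0.474). Cenpe, a kinetochore motor, read 6.18, 6.37, 6.39, 6.35 and 6.04 against 6.21, 5.88, 5.94 and 6.34, a difference of -0.17 ± 0.10. Tpx2, a spindle assembly factor, read 8.05, 8.36, 8.29, 8.17 and 8.0 against 8.25, 8.05, 7.90 and 8.17, a difference of -0.08 ± 0.09. In Kif11 and Cenpe, KO libraries 1 and 4 read like HET libraries and KO libraries 2 and 3 read lower. By role the G2/M ranges were -0.17 to -0.02 for mitotic entry, -0.18 to -0.02 for the spindle checkpoint and exit and -0.19 to 0.04 for kinases and passengers. They were -0.20 to -0.01 for spindle motors with Tpx2 and -0.17 to -0.01 for kinetochore genes.

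The mean over the 29 G1/S genes was 8.29, 8.55, 8.52, 8.31 and 8.30 in HET libraries 1 to 5 and 8.35, 8.0, 8.14 and 8.32 in KO libraries 1 to 4. HET libraries 2 and 3 stood above the other HET libraries, and KO libraries 1 and 4 matched those others. When each library was left out in turn, 27 to 29 of the G1/S genes stayed below 0, with medians from -0.24 to -0.11. For the G2/M genes 17 to 23 stayed below 0, with medians from -0.18 to -0.05, the smallest without KO library 3. Among cell type lists, the mean of the 13 cDC1 markers was 11.45 to 11.58 in KO and 11.24 to 11.43 in HET libraries. Of the 13 markers, 5 were higher in the KO without overlap, against 1.74% of all genes. The mean of 5 progenitor genes was also higher without overlap, 7.514 to 7.567 in KO and 7.454 to 7.513 in HET libraries. So was that of 7 plasmacytoid dendritic cell markers, 7.782 to 7.808 against 7.711 to 7.779. Means of the other lists overlapped. The part of any list in the gene differences was not tested. Further replication genes outside the 53 followed the same side of 0, 56 of 57 below it, and so did 67 of 71 further mitosis genes, with 0 called in either list.

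In set 2, the replication genes went the other way: 5 G1/S genes rose in resting Mycl KO cDC1 compared with WT cDC1, and no G2/M gene passed the test. The 5 were Cdt1, Mcm4, E2f2, Rfc5 and E2f8, higher by 0.23 to 0.35 (1.18-fold to 1.28-fold). With limma they were 5 of the 50 members tested, against 3.78% of 14012 genes called higher, and no member was called lower. At an unadjusted p under 0.05, 17 G1/S and 5 G2/M genes were higher, against 12.7% of all genes. The difference was above 0 for 26 of the 29 G1/S genes and 17 of the 23 G2/M genes, against 52.9% of all genes. The medians were 0.21 for the G1/S genes and 0.11 for the G2/M genes, against 0.0078 over all genes tested. Nuf2 and Ttk were too low to be tested.

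**Figure D2:**
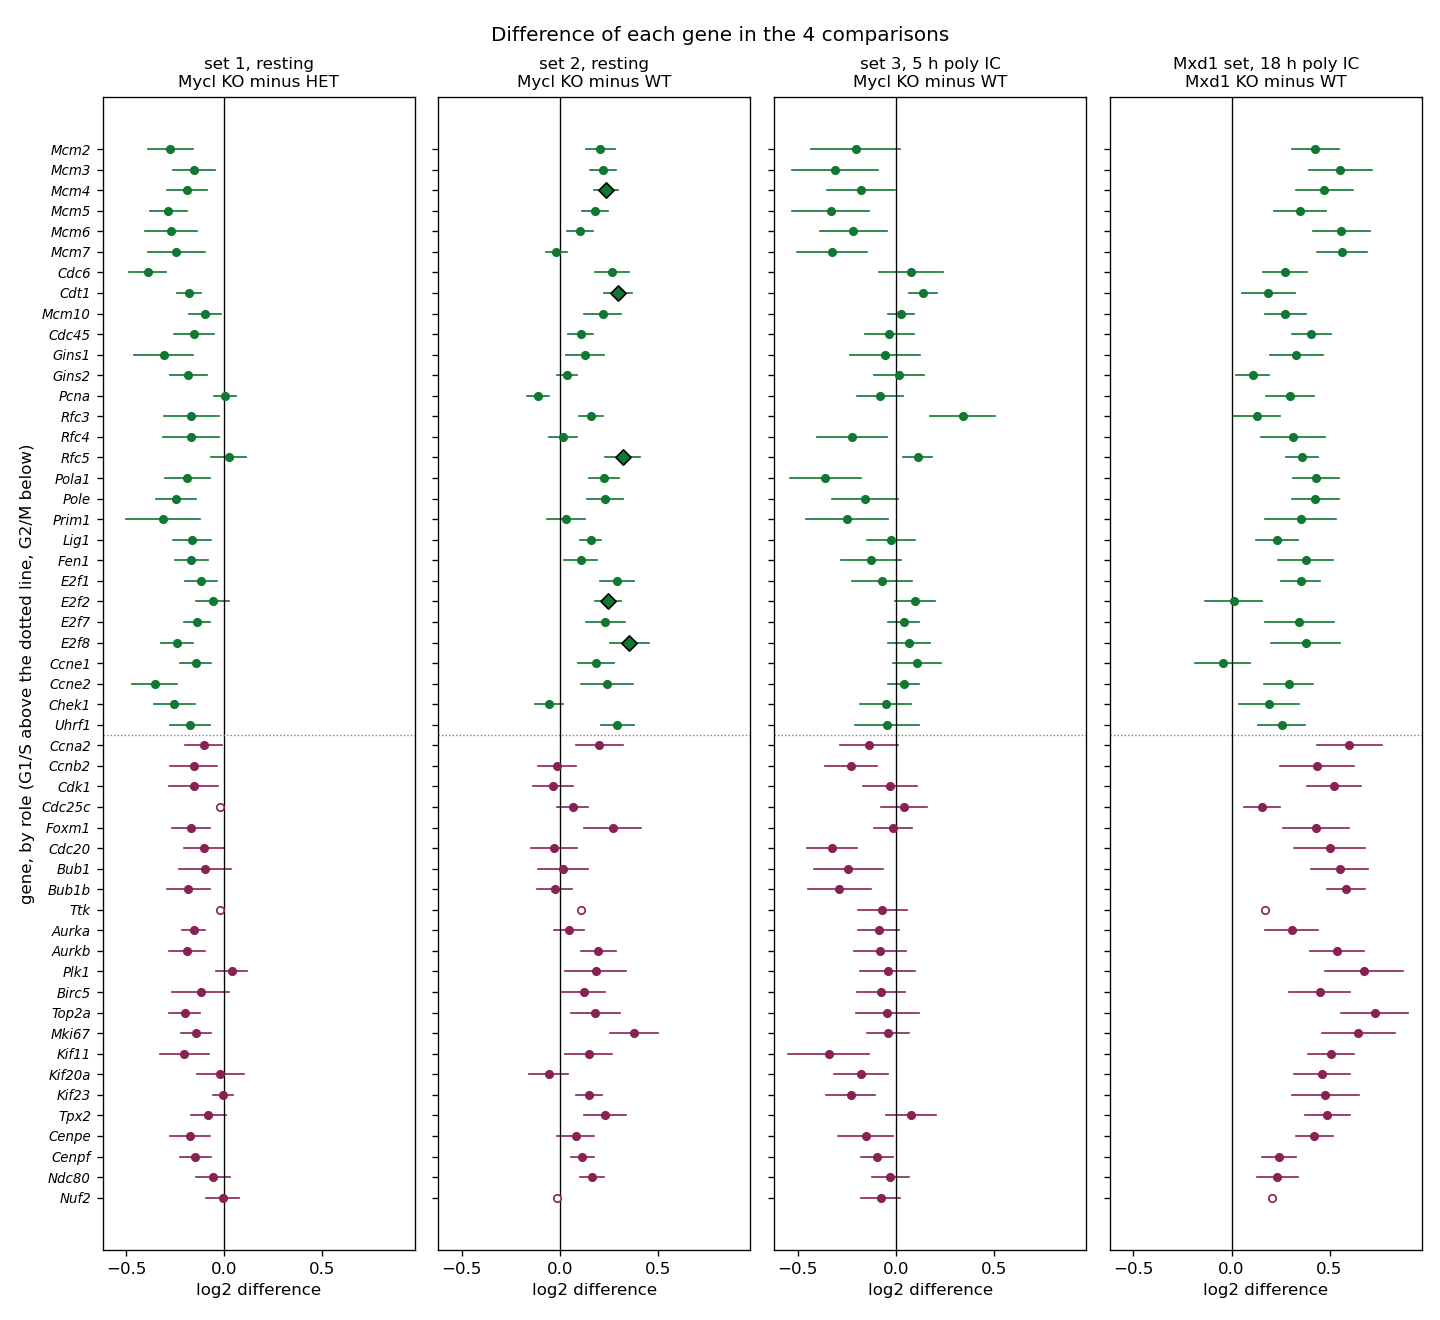
Log2 difference of each gene in the 4 comparisons within a set (points, with bars for the SE from limma), with G1/S genes in green and G2/M genes in dark red. Diamonds mark an adjusted p under 0.05, and open circles mark genes that were too low to be tested. The 5 diamonds all lie in set 2, and nearly all points lie left of 0 in set 1 and right of 0 in the Mxd1 set.

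Of the 8 origin licensing genes of set 2, 2 rose. Cdt1 read 6.93, 6.92, 6.92, 6.81 and 7.06 in WT libraries 1 to 5 and 7.06, 7.20, 7.39, 7.12 and 7.35 in KO libraries 1 to 5, and it was higher by 0.29 ± 0.07 (adjusted p = 0.0251). KO library 1 lay just at the level of WT library 5, and the other 4 KO libraries lay above all WT libraries. Mcm4 read 7.40, 7.45, 7.30, 7.41 and 7.45 against 7.55, 7.80, 7.69, 7.53 and 7.62, and it was higher by 0.23 ± 0.06 (adjusted p = 0.037). All 5 KO values of Mcm4 lay above all 5 WT values, and the same held for Mcm3 and Lig1, the 3 members without overlap, against 3.74% of all genes.

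Cdc6 read 6.50, 6.34, 6.55, 6.63 and 6.56 in the WT and 6.56, 6.82, 6.85, 6.61 and 7.06 in the KO libraries, a difference of 0.26 ± 0.09 (adjusted p = 0.0875) that did not pass the threshold. KO libraries 1 and 4 lay within the WT range. The remaining MCM subunit genes ranged from -0.02 (Mcm7) to 0.22 (Mcm3). The 4 helicase activation genes ranged from 0.04 (Gins2) to 0.22 (Mcm10), and none was called.

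The fork gene that rose was Rfc5, a subunit of the clamp loader, which read 7.80, 7.96, 8.02, 7.63 and 7.75 in the WT and 8.15, 7.95, 8.14, 8.07 and 8.43 in the KO libraries. It was higher by 0.32 ± 0.09 (adjusted p = 0.0471). KO library 2 lay within the WT range and KO library 5 was the highest of all. The clamp gene Pcna went the opposite way, with a difference of -0.11 ± 0.06 (adjusted p = 0.271). The other 7 fork genes ranged from 0.02 (Rfc4) to 0.23 (Pole).

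All 6 E2F and E cyclin genes were above 0, from 0.18 to 0.35, and 2 of them rose. E2f2, an activating E2F, read 6.80, 6.72, 6.72, 6.64 and 6.85 in the WT and 6.84, 6.98, 7.13, 6.89 and 7.11 in the KO libraries, higher by 0.25 ± 0.07 (adjusted p = 0.0451), with KO library 1 just below WT library 5. E2f8 read 7.43, 7.24, 7.56, 7.32 and 7.45 against 7.72, 7.92, 7.89, 7.35 and 7.88, higher by 0.35 ± 0.10 (adjusted p = 0.0476). KO library 4 was the exception for E2f8: it lay among the WT libraries, while the other 4 KO libraries lay above all of them. Uhrf1 was close to the threshold at 0.29 ± 0.09 (adjusted p = 0.0544), and Chek1 was at -0.06.

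Of the G2/M genes of set 2, Mki67 differed most. It read 9.01, 8.74, 9.23, 8.96 and 9.09 in the WT and 9.44, 9.62, 9.52, 8.86 and 9.48 in the KO libraries, a difference of 0.38 ± 0.12 (adjusted p = 0.0801). Here 4 KO libraries lay above all WT libraries and KO library 4 lay below 4 of the 5. Foxm1, a transcription factor of G2/M genes, read 7.52, 7.40, 7.67, 6.89 and 7.50 against 7.83, 7.90, 7.55, 7.19 and 7.86, a difference of 0.27 ± 0.15 (adjusted p = 0.312). Tpx2 read 6.90, 6.64, 7.01, 6.65 and 6.87 against 7.03, 7.22, 7.10, 6.63 and 7.24, a difference of 0.23 ± 0.11 (adjusted p = 0.229). The other G2/M genes ranged from -0.06 (Kif20a) to 0.20 (Ccna2), and the spindle checkpoint and exit genes Bub1, Bub1b and Cdc20 were within 0.03 of 0.

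The KO libraries of set 2 spread more widely than the WT libraries. G1/S means were 7.28 to 7.35 in the 5 WT libraries and 7.42, 7.55, 7.55, 7.30 and 7.58 in KO libraries 1 to 5. KO library 4 had the lowest value of its group in 17 of the 29 G1/S and 21 of the 23 G2/M genes, and its G2/M mean was 6.48, against 6.84 to 6.97 in the other KO and 6.61 to 6.88 in the WT libraries. Without KO library 4, 9 members were called, 7 G1/S and 2 G2/M genes, with medians of 0.26 and 0.16, beside 623 of 14087 genes called in either direction in that fit and 861 of 14012 with all libraries. Only 3 of the 5 genes named above were among those 9. Without KO library 5 or WT library 1, 2 or 4, 0 members were called, against 3.22%, 2.9%, 3.59% and 4.5% of all genes. The count was 2 without KO library 2 or 3, against 5.07% and 5.32% of all genes. It was 3 without WT library 3 or 5, against 4.12% and 7.16%, and 5 without KO library 1, against 6.27%.

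The mean of 5 progenitor genes (Kit, Cd34, Cd93, Sox4 and Gata2) was 6.63 to 6.78 in the KO and 6.51 to 6.56 in the WT libraries of set 2, with 1 of the 5 called higher, against 3.78% of all genes. Of the 13 cDC1 markers 5 were called higher and 1 lower, against 3.78% and 2.36% of all genes, and their mean was 10.79 to 10.92 in the KO and 10.71 to 10.84 in the WT libraries. Among 7 plasmacytoid dendritic cell markers 2 were called higher and 1 lower, with means of 6.93 to 7.18 in the KO and 6.89 to 6.97 in the WT libraries. Among 7 monocyte and macrophage markers tested 2 were called higher and 1 lower, and the means over the 8 on the array were 6.44 to 6.69 and 6.31 to 6.57. The cDC2 and B cell lists each had 1 gene called higher and 1 lower, and the T and NK cell list had 1 called higher. The part of any of these lists in the rise of the 5 replication genes was not tested. Outside the 53 genes, 4 of 56 further replication genes tested rose, against 3.78% of all genes: Rpa2, a subunit of the single-strand binding protein, by 0.35 ± 0.09, Rfc2, a clamp loader subunit, by 0.32 ± 0.06, Cdk2, the partner of cyclin E, by 0.25 ± 0.07, and the maintenance methyltransferase gene Dnmt1 by 0.23 ± 0.06. Of 69 further mitosis genes tested, Pttg1, the securin that keeps the protease separase inactive until anaphase, was the only one called, a share below that of all genes, and it rose by 0.27 ± 0.07. These errors are SE from limma, with adjusted p from 0.0088 to 0.0477.

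**Figure D3:**
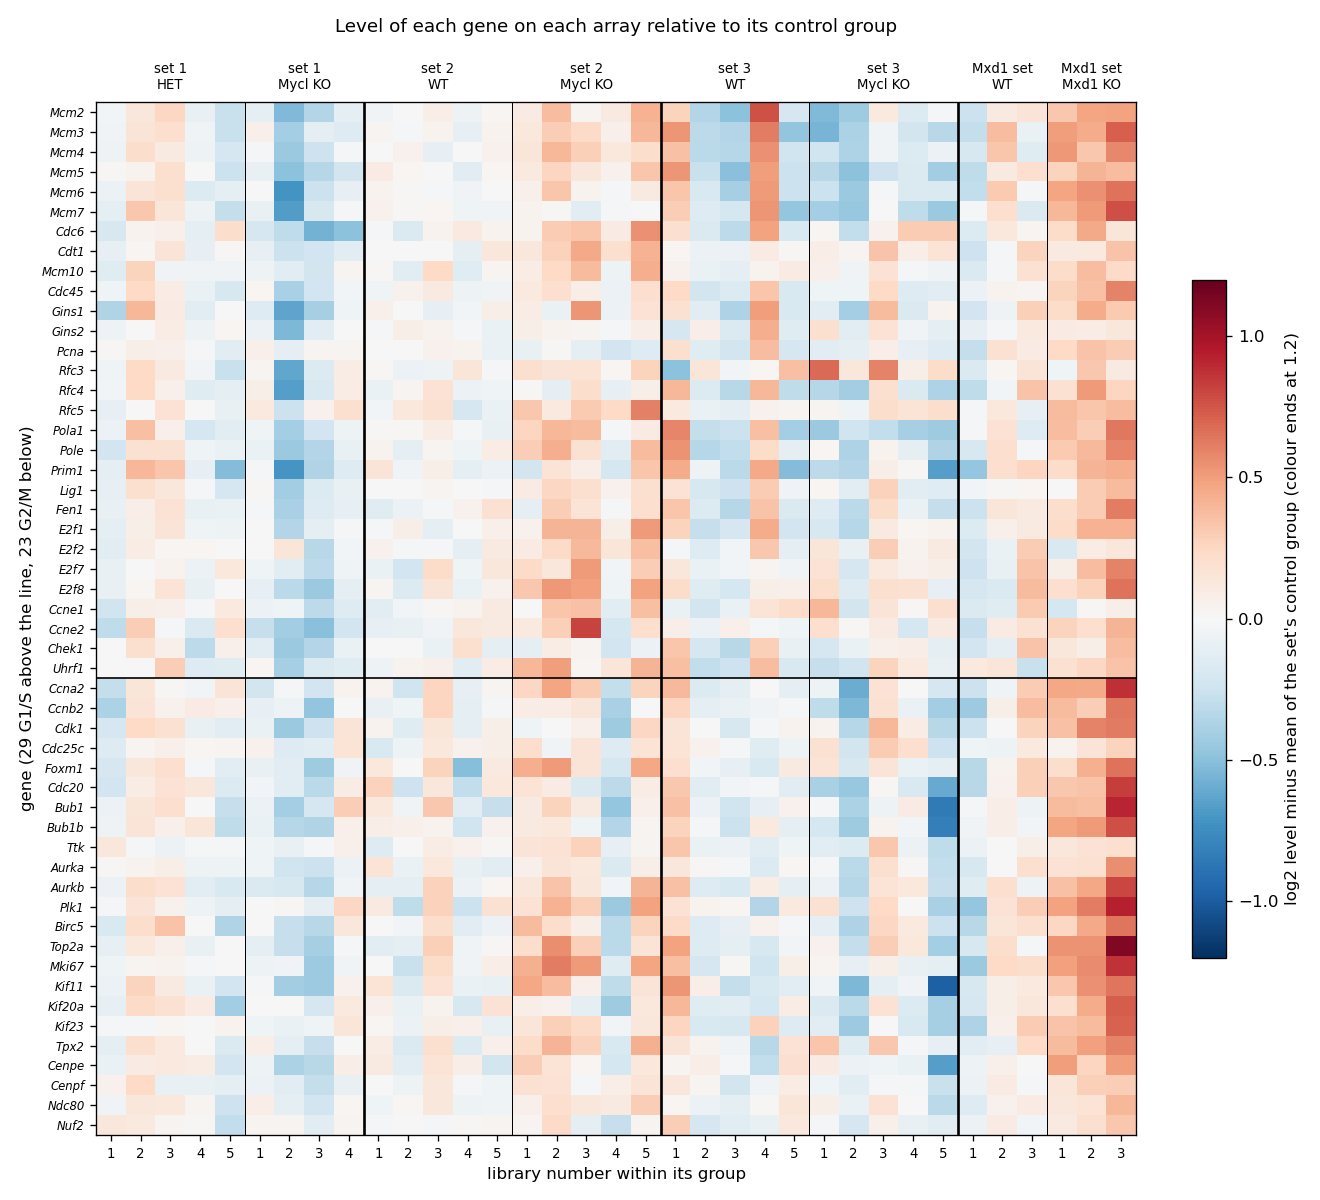
Log2 level of each of the 52 genes (rows, G1/S above the line) in each library (columns, numbered within their group), minus the mean of the control group of its set; red is higher, blue lower, and the colour scale ends at 1.2. Whole columns share a colour: KO libraries 2 and 3 of set 1 are blue, KO library 4 of set 2 is blue mainly among the G2/M genes, and WT libraries 1 and 4 of set 3 are red among the G1/S genes.

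The opposite signs of sets 1 and 2 were tested as a difference between the 2 effects, each taken within its set. These signs were known when the contrast was chosen, so its calls give no independent support for opposite changes. The effect was higher in set 2 for 3 G1/S genes, against 0.758% of 14639 genes. Cdc6 had the largest, 0.66 ± 0.13 (adjusted p = 0.0221), from -0.39 in set 1 to 0.26 in set 2. E2f8 followed with 0.59 ± 0.14 (adjusted p = 0.0399), and Cdt1 had 0.47 ± 0.10 (adjusted p = 0.0221). The promoter windows of these genes are printed above because the choice counted calls, including those of this test. That the 2 lists match was thus fixed by the choice.

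At an unadjusted p under 0.05 the effect was higher in set 2 for 24 of 29 G1/S genes and 5 of 22 G2/M genes tested, against 10.6% of all genes. By role this held for 7 of 8 licensing genes, all 4 helicase activation genes, 6 of 9 fork genes and all 6 E2F and E cyclin genes. Mcm5, at 0.46 ± 0.12 (adjusted p = 0.054), was just beyond the threshold after adjustment. The sets also differ in their control, HET in set 1 and WT in set 2, so set and control allele cannot be told apart. The count of 3 was 0 without KO library 3 of set 1, 1 without KO library 2 of set 1 or KO library 5 of set 2, 5 without KO library 1 of set 2 and 6 without its KO library 4. Over all genes 148 of 14639 were called in either direction with all libraries, and 31 of 14728 without KO library 3 of set 1. Without KO library 2 of set 1 the share of all genes was 0.536%. It was 0.328%, 2.17% and 0.924% without KO library 5, 1 or 4 of set 2. The count of 3 was also 0 with all 8 groups in 1 fit, against 0.102% of all genes. Further replication genes called in the same direction, 5 of 57 tested against 0.758% of all genes, were Brca2 (0.66 ± 0.14), Rpa2 (0.56 ± 0.12), Pola2 (0.51 ± 0.12), Pold2 (0.49 ± 0.11) and, outside the rule for named genes and added after its value was seen, Dnmt1 (0.36 ± 0.08), and no further mitosis gene was called.

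With both resting sets joined in a limma fit that kept the set as a block, 0 of 51 members tested were called, against 4.43% of 14639 genes. Rfc5 was higher (0.18 ± 0.07) and Chek1 lower (-0.15 ± 0.07) at an unadjusted p under 0.05, 2 genes against 18.6% of all genes. The G1/S genes split into 15 above and 14 below 0, and their median was 0.0063. Pttg1, a mitosis gene outside the 53, was called higher at 0.20 ± 0.05 (adjusted p = 0.0284).

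**Figure D4:**
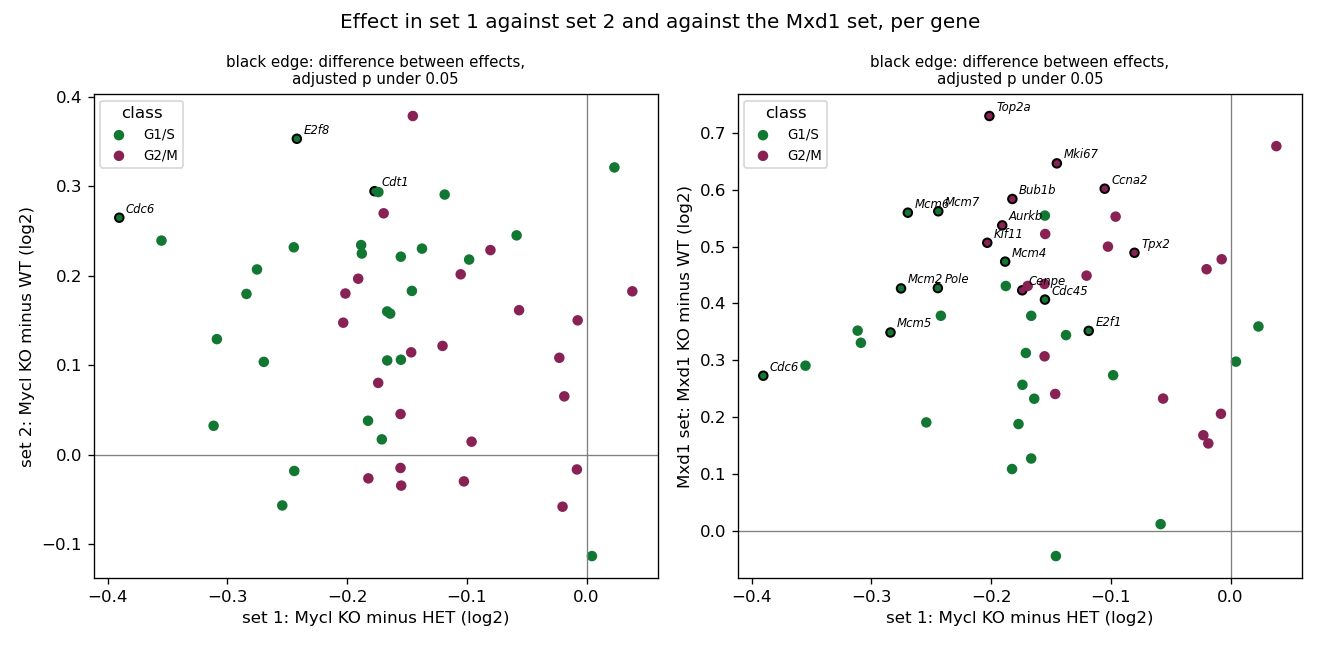
Effect of each of the 52 genes in set 1 (horizontal axis, log2) against its effect in set 2 (left panel) and in the Mxd1 set (right panel), with G1/S genes in green and G2/M genes in dark red. A black edge and a name mark a difference between the effects with an adjusted p under 0.05 by limma, 3 genes on the left and 17 on the right. Most points lie in the upper left part, below 0 in set 1 and above 0 in the other set.

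In set 3, 5 h after poly IC, no replication or mitosis gene passed the test between Mycl KO and WT cDC1, and the direction of the G1/S genes turned on which WT libraries were used. With all 10 libraries limma called 0 of the 52 members, and 0% of 14033 genes. The medians were -0.05 for the G1/S and -0.08 for the G2/M genes, against -0.0012 over all genes. The difference was below 0 for 18 of 29 G1/S and 21 of 23 G2/M genes, against 50.3% of all genes. At an unadjusted p under 0.05 Cdc20 alone was lower, against 7.58% of all genes.

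WT libraries 1 and 4, whose interferon genes were low, had the highest G1/S means of the set, 7.60 and 7.71, against 7.15 to 7.23 in the other WT libraries. Across the KO libraries 1 to 5 the G1/S means were 7.30, 7.15, 7.51, 7.32 and 7.27. The library labelled KO 3, with its Mycl level near that of WT libraries, was the highest KO library in 19 of 29 G1/S and 17 of 23 G2/M genes. WT library 4 was the highest WT library in 17 of 29 G1/S genes but in 1 of 23 G2/M genes, whereas WT library 1 was the highest in 19 of 23 G2/M genes. Without WT libraries 1 and 4, a choice made after seeing the data, 27 of 29 G1/S genes were above 0 with a median of 0.12, and 16 of 23 G2/M genes were below 0 with a median of -0.02. With the library labelled KO 3 left out as well, 24 of 29 G1/S genes were above 0 with a median of 0.06, and 22 of 23 G2/M genes were below 0 with a median of -0.09. Leaving out WT library 4 alone already gave 18 of 29 G1/S genes above 0, with a median of 0.04. Each of these fits called 0 members, against 0.0706%, 0.446% and 0.0% of all genes, in that order. The mean of the 13 cDC1 markers was 10.09 to 10.76 in the WT and 10.05 to 10.23 in the KO libraries, and its part in these values was not tested.

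**Figure D5:**
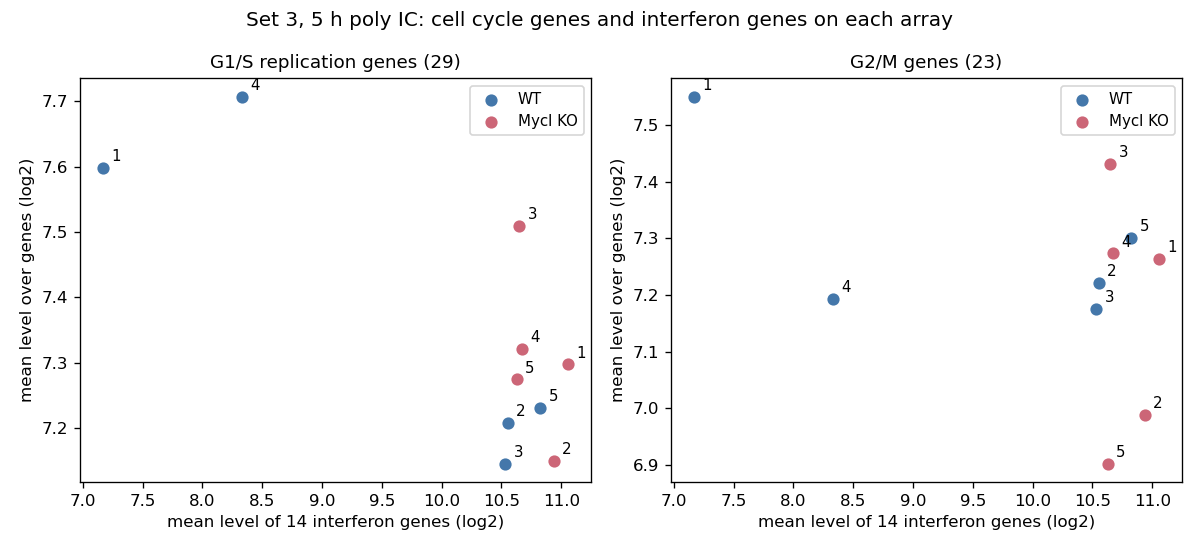
Mean log2 level of the 29 G1/S genes (left) and 23 G2/M genes (right) against the mean of 14 interferon genes in the 10 libraries of set 3, numbered within WT (blue) and Mycl KO (rose). WT libraries 1 and 4 lie apart at interferon means of 7.17 and 8.33 and have the 2 highest G1/S means, and in the right panel WT library 1 is highest while WT library 4 lies among the others.

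Pola1, the polymerase that extends the primer, read 7.07, 6.19, 6.22, 6.84 and 6.07 in WT libraries 1 to 5 and 6.03, 6.24, 6.19, 6.08 and 6.06 in KO libraries 1 to 5, a difference of -0.36 ± 0.18 (adjusted p = 0.371). Mcm5 read 9.14, 8.34, 8.10, 9.11 and 8.34 against 8.27, 8.12, 8.36, 8.43 and 8.19, a difference of -0.33 ± 0.20 (adjusted p = 0.419). In both genes WT libraries 1 and 4 alone lay above the KO libraries, and for Mcm5 the difference without them was 0.01. Rfc3, a clamp loader subunit, went the other way: it read 7.04, 7.68, 7.50, 7.56 and 7.89 against 8.22, 7.67, 8.13, 7.61 and 7.75, a difference of 0.34 ± 0.17 (adjusted p = 0.366). WT library 1 was the lowest for Rfc3. The other MCM subunit genes ranged from -0.32 (Mcm7) to -0.18 (Mcm4), the E2F and E cyclin genes from -0.07 to 0.11, and the helicase activation genes from -0.06 to 0.03.

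Among the G2/M genes of set 3, Cdc20, the activator of the anaphase-promoting complex, read 8.13, 7.67, 7.77, 7.78 and 7.67 in the WT and 7.41, 7.34, 7.82, 7.62 and 7.20 in the KO libraries, a difference of -0.33 ± 0.13 (adjusted p = 0.31). Kif11 read 8.20, 7.76, 7.39, 7.49 and 7.55 against 7.64, 7.13, 7.57, 7.64 and 6.70, a difference of -0.34 ± 0.21 (adjusted p = 0.427). Bub1b read 7.22, 6.94, 6.70, 7.07 and 6.83 against 6.74, 6.52, 7.0, 6.92 and 6.13, a difference of -0.29 ± 0.16 (adjusted p = 0.399). For Kif11 and Bub1b the lowest value came from KO library 5 and the highest from WT library 1. All 4 spindle checkpoint and exit genes, all 4 kinases and passengers and all 4 kinetochore genes were below 0. Tpx2 was the highest G2/M gene at 0.08.

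The effect of set 3 minus that of set 2 was called for 0 of 52 members by limma, against 0.0205% of 14665 genes. At an unadjusted p under 0.05 it was lower for 4 G1/S and 3 G2/M genes, against 7.84% of all genes. The lowest were Pola1 at -0.58 ± 0.20 (adjusted p = 0.26), Mcm3 at -0.53 ± 0.24 and Mcm5 at -0.51 ± 0.21, genes for which WT libraries 1 and 4 of set 3 were high. This test shares its set 2 arrays with the test of set 2 against set 1. Set 2 was taken at rest and set 3 at 5 h after poly IC, so set and treatment cannot be told apart in it.

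In the Mxd1 set, 18 h after poly IC, nearly all replication and mitosis genes read higher in the libraries labelled Mxd1 KO than in the WT libraries, but with 3 libraries a group no single gene passed the test. The difference was above 0 for 51 of the 52 genes, against 49.4% of 14080 genes tested, and Ccne1 was the exception at -0.04. The median was 0.34 for the G1/S and 0.48 for the G2/M genes, against -0.0023 over all genes. The groups did not overlap, with KO higher, for 16 of 29 G1/S and 19 of 23 G2/M genes, against 11.8% of all genes. With limma 0 of 50 members were called, against 0.071% of all genes, and at an unadjusted p under 0.05 17 G1/S and 18 G2/M genes were higher, against 9.51% of all genes. Nuf2 and Ttk were too low to be tested.

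The G1/S means were 7.31, 7.57 and 7.61 in WT libraries 1 to 3 and 7.71, 7.82 and 7.91 in libraries labelled KO 1 to 3. The G2/M means were 6.52, 6.80 and 6.87 against 7.04, 7.12 and 7.37. WT library 1 was the lowest WT library in 25 of 29 G1/S and 21 of 23 G2/M genes, and KO library 3 was the highest KO library in 20 and 22 of them. Without WT library 1 the medians were 0.22 and 0.36, and without KO library 3 they were 0.31 and 0.36. Without WT library 2, 6 members were called, 5 G1/S and 1 G2/M gene, and 4.0% of 14217 genes were called in that fit, against 0.071% of 14080 with all libraries. The mean of the 13 cDC1 markers was 10.83 to 10.89 in the libraries labelled KO and 10.48 to 10.79 in WT, without overlap. Other lists were lower without overlap in the libraries labelled KO. These were cDC2 (5.80 to 5.83, against 5.90 to 5.94 in WT) and T and NK cell (5.11 to 5.21 against 5.23 to 5.34). The plasma cell list was lower too (5.920 to 5.997 against 5.999 to 6.069), and the remaining cell type lists overlapped. The interferon mean was 8.78 to 9.21 against 9.13 to 9.35. The part of any of these in the gene differences was not tested.

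All 8 origin licensing genes were above 0 in the Mxd1 set, from 0.19 (Cdt1) to 0.56 (Mcm7), and 6 of them did not overlap. Mcm7 read 7.62, 7.84 and 7.47 in WT libraries 1 to 3 and 8.04, 8.16 and 8.42 in libraries labelled KO 1 to 3, a difference of 0.56 ± 0.13 (adjusted p = 0.157). Mcm6 read 8.12, 8.73 and 8.39 against 8.89, 8.96 and 9.07, a difference of 0.56 ± 0.14 (adjusted p = 0.19). Every labelled KO library lay above every WT library for both subunit genes. Mcm3 read 7.71, 8.37 and 7.92 against 8.50, 8.45 and 8.72, a difference of 0.55 ± 0.16 (adjusted p = 0.207).

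Mcm2 read 8.57, 8.93 and 8.98 in the WT libraries and 9.15, 9.30 and 9.31 in those labelled KO, a difference of 0.43 ± 0.12. Mcm4 read 7.08, 7.61 and 7.13 against 7.79, 7.60 and 7.85, a difference of 0.47 ± 0.14. Mcm4 overlapped, because WT library 2 read about as high as KO library 2. Mcm5 read 8.31, 8.72 and 8.81 against 8.88, 9.02 and 8.99, a difference of 0.35 ± 0.13. For the loader Cdc6 the WT values were 6.61, 6.90 and 6.81 and the labelled KO values 6.99, 7.23 and 6.92, a difference of 0.27 ± 0.11, with KO library 3 just above WT library 2.

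Cdc45 read 7.53, 7.65 and 7.64 in the WT libraries and 7.88, 7.96 and 8.21 in those labelled KO, a difference of 0.41 ± 0.10 (adjusted p = 0.176). Pole read 7.33, 7.73 and 7.51 against 7.83, 7.91 and 8.10, a difference of 0.43 ± 0.12. E2f1 read 7.02, 7.24 and 7.29 against 7.40, 7.60 and 7.60, a difference of 0.35 ± 0.10. None of these 3 genes overlapped between the groups. The helicase activation genes ranged from 0.11 (Gins2) to 0.41 (Cdc45), the 9 fork genes from 0.13 (Rfc3) to 0.43 (Pola1), and the E2F and E cyclin genes from -0.04 (Ccne1) to 0.38 (E2f8), with E2f2 at 0.01. Cdt1 and E2f2, called in set 2, were thus among the smallest G1/S differences here.

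The G2/M genes of the Mxd1 set were led by Top2a, which read 6.22, 6.62 and 6.40 in the WT libraries and 6.95, 6.95 and 7.52 in those labelled KO, a difference of 0.73 ± 0.17 (adjusted p = 0.163). Plk1, the kinase that drives mitotic entry and exit, read 6.77, 7.41 and 7.54 against 7.72, 7.85 and 8.17, a difference of 0.68 ± 0.20 (adjusted p = 0.209). WT library 1 was far below the other WT libraries for Plk1. Mki67 read 8.12, 8.79 and 8.77 against 9.05, 9.13 and 9.43, a difference of 0.65 ± 0.19 (adjusted p = 0.206), again with WT library 1 the lowest. Bub1b read 6.18, 6.30 and 6.19 against 6.70, 6.73 and 7.0, a difference of 0.58 ± 0.10 (adjusted p = 0.101), the lowest adjusted p of the 50. The 3 WT values of Bub1b were close together, and all labelled KO values were clear of them.

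Ccna2 read 7.34, 7.54 and 7.90 in the WT libraries and 8.06, 8.05 and 8.47 in those labelled KO, a difference of 0.60 ± 0.16. Aurkb read 7.91, 8.25 and 7.99 against 8.40, 8.51 and 8.85, a difference of 0.54 ± 0.14 (adjusted p = 0.183). Kif11 read 5.96, 6.23 and 6.28 against 6.48, 6.71 and 6.80, a difference of 0.51 ± 0.12 (adjusted p = 0.162). None of these overlapped. Cenpe read 4.92, 5.04 and 4.99 against 5.49, 5.25 and 5.49, a difference of 0.42 ± 0.09 (adjusted p = 0.153). Tpx2 read 6.56, 6.59 and 6.93 against 7.07, 7.18 and 7.29, a difference of 0.49 ± 0.12 (adjusted p = 0.169). All 4 spindle checkpoint and exit genes, the spindle motor genes with Tpx2, and all 4 kinetochore genes were free of overlap. Their ranges were 0.17 to 0.58, 0.46 to 0.51 and 0.21 to 0.42. Mitotic entry genes ranged from 0.15 (Cdc25c) to 0.60 (Ccna2). The cluster used for Top2a was the brighter of its 2, and the other, at a mean level of 3.13, had a difference of 0.15.

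Outside the 53 genes, 51 of 57 further replication genes and 67 of 71 further mitosis genes were above 0 in the Mxd1 set, with medians of 0.21 and 0.31 and 0 called.

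The lower values of set 1 and the higher values of the Mxd1 set were set against each other in a limma test of the difference between the effects. Both directions were known when this contrast was chosen, so its calls give no independent support for opposite changes. The difference was higher in the Mxd1 set for 17 members, 9 G1/S and 8 G2/M genes, against 3% of 14699 genes. At an unadjusted p under 0.05 it was higher for 24 of 29 G1/S and 19 of 22 G2/M genes, against 14.3% of all genes. The comparison changes the deleted gene, the poly IC treatment and the control allele at once, so these cannot be told apart. It also shares its set 1 arrays with the test of set 2 against set 1.

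The origin licensing genes made up 6 of the 9 G1/S calls. The differences between effects were 0.83 ± 0.21 for Mcm6, 0.81 ± 0.22 for Mcm7, 0.70 ± 0.18 for Mcm2, 0.66 ± 0.18 for Mcm4, 0.63 ± 0.17 for Mcm5 and 0.66 ± 0.15 for Cdc6. The others were Pole at 0.67 ± 0.17, Cdc45 at 0.56 ± 0.15 and E2f1 at 0.47 ± 0.13. Among the G2/M genes Top2a had the largest, 0.93 ± 0.18 (adjusted p = 0.0142), followed by Mki67 at 0.79 ± 0.19, Bub1b at 0.77 ± 0.16 and Aurkb at 0.73 ± 0.17. Kif11, Ccna2, Cenpe and Tpx2 lay between 0.57 and 0.71. Adjusted p of the 17 from limma ran from 0.0142 to 0.0489.

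This count turned on single libraries: it was 1 without WT library 1 of the Mxd1 set and 2 without KO library 3 of either set. It was 4 without KO library 2 of either set or without HET library 2, 3 or 4 of set 1. It was 6 and 7 without KO library 1 of set 1 and of the Mxd1 set. In these fits 1.01% to 2.54% of all genes were called. The count was 14 and 18 without HET library 1 or 5 of set 1, against 4.35% and 5.77% of all genes. It was 19 without KO library 4 of set 1, against 4.93%. Without WT library 2 or 3 of the Mxd1 set it was 24 and 30. Over all genes, 727 of 14699 were called in either direction with all libraries, and 226, 2350 and 1046 without WT library 1, 2 or 3 of the Mxd1 set. The fit uses 1 estimate of the spread per gene over both sets. With weights for each array the count was 2, against 1.82% of all genes, and with all 8 groups in 1 fit it was 0, against 0.537%. Further genes outside the 53 were called higher in 8 of 56 replication and 15 of 71 mitosis genes tested, against the same 3% of all genes. The largest were the origin firing gene Ticrr (0.83 ± 0.14), the ribonucleotide reductase gene Rrm1 (0.80 ± 0.21), Brca2 (0.68 ± 0.14) and Wdhd1 (0.67 ± 0.18) among the former, and Kif4 (0.83 ± 0.19), Cdca8 (0.80 ± 0.16), Kif18b (0.73 ± 0.15) and Kif15 (0.72 ± 0.16) among the latter. Gins3, of the GINS complex, was called in the opposite direction (-0.38 ± 0.10), against 1.95% of all genes called lower.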

How the data were processed

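RNA of sorted cDC1 was measured on Affymetrix arrays. The authors deposited 1 log2 value per transcript cluster and array, made with Affymetrix Expression Console and RMA per the submitters' processing notes. Their versions, and the build and annotation, are not stated in the sources used here. Of 35556 clusters, 21789 carried 1 gene symbol in the platform annotation, 1621 carried several and 12146 were not listed. The cluster with the highest mean stood for each of 19938 genes. Array medians differ between the 4 sets, so only differences within a set were used. The number of arrays limits the precision.

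Groups follow the labels. A gene was tested if it reached the 30th percentile of named clusters on as many arrays as there are libraries in the smaller group. Tests were two-sided with limma 3.58.1 in R 4.3.3 (lmFit, eBayes). The p-values were adjusted by Benjamini-Hochberg across every gene tested, and 0.05 was the threshold. Errors of differences are its SE. Differences between effects were fitted over both sets with 1 spread per gene. A difference in log2 of 1 is a doubling. Class counts and medians cover all measured members and carry no test. The scripts were tested on simulated data.

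The members and all lists were chosen with earlier results of these data known. Values in every library are given for members called in any comparison and for the 3 tested members per class with the largest difference within a set. Of further replication and mitosis genes called, the 4 largest per comparison are named. Promoters were chosen by the number of calls, then by size. Alternatives changed the filter, the clusters, the arrays in the fit, array weights, the scaling, the variance model, the replicate block and single libraries.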

Additional observations from a re-analysis of the deposited data

Results flagged for a closer look

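Among 88 groups of 4 or 5 libraries checked for a library far from the others by Dixon's test, of which chance gives about 1 in 20, 5 stood out. Mki67 was lowest in KO library 3 of set 1, at 9.53 against 9.89 in the next library, while KO libraries 2 and 4 held the same value, 9.91607. Mki67 was also lowest in KO library 4 of set 2, at 8.86 against 9.44 in the next. The mean of the 23 G2/M genes in that same library was 6.48, against 6.84 in the next. Cdc20 was highest in WT library 1 of set 3, at 8.13 against 7.78 in the next. Mycl was highest in the library labelled KO 3 of set 3, at 8.87 against 6.14 in the next.

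The Mycl KO effect differed between sets 2 and 1, by limma's test of that difference, for Cdc6 by 0.66, for Cdt1 by 0.47 and for E2f8 by 0.59 on the log2 scale. This contrast was chosen with the opposite signs known, so these calls give no independent support for a difference.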

How the results depend on the processing

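Every class median kept its sign under the filters, cluster choices and scalings tried, except that array weights and leaving out libraries turned the G1/S median of set 3 (0.04 with array weights). The count of members called was less stable, and brackets below give the share of all genes called in the same fit. In set 2 the count was 5 as reported (6.14%), 2 without a filter (3.6%) and 8 with the filter at the 50th percentile (9.74%). It was 2 with all 8 groups in 1 fit (2.55%) and 3 after quantile normalization over all arrays (6.77%). With arrays centred on their medians it was 2 (5.56%), and with single libraries left out 0 to 9 (2.9% to 7.16%). In the Mxd1 set it was 2 with all 8 groups in 1 fit (1.67%) and 0 to 6 with single libraries left out (0.0211% to 4.0%). For the resting sets joined it was 0 to 1 with single libraries left out (2.96% to 5.84%). For the effect of set 2 minus that of set 1 it was 3 as reported (1.01%) and 0 with all 8 groups (0.102%). It was 5 with array weights (3.99%) and 0 to 6 with single libraries left out (0.21% to 2.17%). For the Mxd1 set minus set 1 it was 17 as reported (4.95%), 9 without a filter (2.81%) and 0 with all 8 groups (0.537%). It was 2 with array weights (1.82%), 10 after quantile normalization (4.35%) and 1 to 30 with single libraries left out (1.01% to 15.8%). The difference of Mcm5 in set 3 turned to 0.013 without WT libraries 1 and 4. The cause of these shifts was not tested.

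Equal replicate numbers did not pair the libraries: deviations of same-numbered libraries correlated from -0.40 to 0.35. With the replicate block, members called were 0 in set 1, 4 in set 2, 0 in set 3 and 0 in the Mxd1 set. The shares of all genes were 0.00713%, 5.92%, 0.00713% and 0.114%. For set 2 minus set 1 the count was 0, against 0.205% of all genes, and for the Mxd1 set minus set 1 it was 8, against 1.9%.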
